A study of Rattus norvegicus with 28 samples.

Results

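Nr1i3, Nr1i2, Rxra, Cyp2b1, Cyp2b2, Por and Cyp3a9 form a small set of liver genes around the nuclear receptors CAR and PXR, and their RNA levels are described here in 28 livers of female Sprague-Dawley rats. They were chosen by name, as the brightest transcript cluster with exactly 1 gene symbol, and are 7 of 18166 genes with such a cluster on the array. Each of the 7 had exactly 1 cluster. The clusters carry the identifiers 17681850 (Nr1i3), 17665898 (Nr1i2), 17760470 (Rxra), 17614487 (Cyp2b1), 17614499 (Cyp2b2), 17676987 (Por) and 17672324 (Cyp3a9) on the Affymetrix Rat Gene 2.0 ST array, whose probes lie along the whole length of a transcript.

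The rats came from a chronic feeding trial, in which every diet was a standard chow with 33% maize. The control group (10 rats) ate the isogenic maize that carries no transgene, the NK603 group (9 rats, labelled GMO) ate maize tolerant to the herbicide Roundup that had not been sprayed with it, and the NK603+R group (9 rats, labelled GMO+R) ate the same maize sprayed during cultivation. Each rat gave 1 array, so that p-values measure the spread between these animals, and precision is limited by how many arrays there are. Rats were killed at the end of the trial or earlier for welfare reasons, at ages of 540 to 737 days in the control group, 393 to 737 days with NK603 and 533 to 737 days with NK603+R, and per the study's methods at the same time of day. Of them, 2 control, 4 NK603 and 3 NK603+R rats were killed before 700 days. The study names mammary tumours as the main cause of death of these females. More rats bore them in each NK603 group than among controls. Tumours were not linked to single rats here, and their part in the results was not tested. The strain is outbred, and the hour of death is not given in the sources used here.

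CAR, encoded by Nr1i3, and PXR, encoded by Nr1i2, are ligand-regulated transcription factors that sense drugs, steroids and bile acids in hepatocytes and bind DNA as heterodimers with RXR alpha, the product of Rxra. CAR is held in the cytoplasm of hepatocytes and moves to the nucleus on treatment with phenobarbital, so that its activity need not follow its RNA level. Cyp2b1 and Cyp2b2 encode the cytochromes P450 of the rat that phenobarbital induces most, Cyp3a9 encodes a member of the Cyp3a family to which PXR targets belong, and Por encodes the reductase that passes electrons from NADPH to microsomal P450 enzymes. In mouse liver, transcription factors of the clock output (DBP, TEF and HLF) control the expression of Nr1i3 and Por.

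Promoter windows are shown first for the pair of Cyp2b copies and then for 3 of the other genes. The windows run from 250 bases before to 50 bases after the annotated start, 300 bases in all, and are taken from RefSeq on build GRCr8, where all 7 genes were matched. Cyp2b1 (chr1:90645869-90646168, plus strand) and Cyp2b2 (chr1:90722031-90722330, plus strand) are shown because their windows are nearly the same sequence. Over 283 aligned bases 275 were identical (97.2%), and capitals mark the 8 bases that differ.
Cyp2b1: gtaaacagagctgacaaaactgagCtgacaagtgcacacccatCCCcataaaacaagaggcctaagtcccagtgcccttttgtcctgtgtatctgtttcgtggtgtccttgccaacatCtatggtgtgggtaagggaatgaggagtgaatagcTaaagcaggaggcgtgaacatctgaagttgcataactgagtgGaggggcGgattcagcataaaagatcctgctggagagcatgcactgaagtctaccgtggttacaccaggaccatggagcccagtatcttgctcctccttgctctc
Cyp2b2: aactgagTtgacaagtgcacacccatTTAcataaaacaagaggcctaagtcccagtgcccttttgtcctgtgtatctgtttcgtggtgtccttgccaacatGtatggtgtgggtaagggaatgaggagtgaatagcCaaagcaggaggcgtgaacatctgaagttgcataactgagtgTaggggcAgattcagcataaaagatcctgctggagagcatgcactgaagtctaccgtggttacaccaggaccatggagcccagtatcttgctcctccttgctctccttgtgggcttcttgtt
An 8-base D-box, TTATGTAA, the site bound by the DBP family, was matched on the minus strand of Cyp2b2 at position -224 from the start, and 3 of its 8 bases differ from Cyp2b1, which held no match. Of 33469 promoter windows of the same length 0.893% held a D-box on either strand. Transcripts of these copies are alike, so that probes of 1 copy may read RNA of the other, and the levels of Cyp2b1 and Cyp2b2 are uncertain to that extent.

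The windows of Nr1i3 (chr13:86165170-86165469, plus strand), Por (chr12:26635760-26636059, minus strand) and Cyp3a9 (chr12:21960111-21960410, minus strand) follow, since the relations across rats given below involve these genes. Capitals mark matches to AGGTCA or AGTTCA, 6-base sites that nuclear receptors recognise in pairs, on either strand, of which Nr1i3 had none.
Nr1i3: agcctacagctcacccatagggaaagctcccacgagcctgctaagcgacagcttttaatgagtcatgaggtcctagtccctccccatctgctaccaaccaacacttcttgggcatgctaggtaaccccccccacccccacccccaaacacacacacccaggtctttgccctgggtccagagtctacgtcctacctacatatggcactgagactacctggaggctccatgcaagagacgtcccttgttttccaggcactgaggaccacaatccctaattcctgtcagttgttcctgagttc
Por: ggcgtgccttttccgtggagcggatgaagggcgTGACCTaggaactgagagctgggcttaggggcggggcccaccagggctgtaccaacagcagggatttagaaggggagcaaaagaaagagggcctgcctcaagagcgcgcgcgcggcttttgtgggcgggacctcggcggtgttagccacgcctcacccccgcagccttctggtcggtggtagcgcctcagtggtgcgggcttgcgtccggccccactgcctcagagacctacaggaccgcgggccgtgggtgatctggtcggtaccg
Cyp3a9: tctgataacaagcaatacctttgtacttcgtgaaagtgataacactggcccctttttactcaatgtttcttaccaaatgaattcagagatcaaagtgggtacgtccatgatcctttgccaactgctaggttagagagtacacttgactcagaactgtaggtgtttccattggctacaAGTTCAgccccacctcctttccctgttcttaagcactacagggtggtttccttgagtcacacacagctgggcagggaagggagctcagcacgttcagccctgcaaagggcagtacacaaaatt
Por held AGGTCA on the minus strand at position -217 and Cyp3a9 held AGTTCA at position -73, while the window of Nr1i2 held AGTTCA at position -136. Such matches were common, with AGGTCA in 16.2% and AGTTCA in 14.5% of all windows. The E-box CACGTG, in 6.42% of all windows, was matched in none of the 7. Positions are those of the first base of a match, and no matches overlapped.

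The livers were alike in the level of Alb, the main plasma protein made by hepatocytes, whose log2 signal ran from 13.94 to 14.12 over all rats. All 6 hepatocyte markers measured were bright, with a mean log2 signal of 13.21 to 13.38 per rat. Whether signals this bright can show a difference in hepatocyte content was not tested. Array medians ran from 5.93 to 6.08, and correlations between 2 arrays over all clusters from 0.955 to 0.990. In a whole liver slice, fewer cells of a type and less RNA per cell cannot be told apart. The mean levels of 9 marker lists of liver and blood cell types had an r with Nr1i3 between -0.305 (stellate cells and fibroblasts) and 0.273 (B and plasma cells), with diet means removed, and with Cyp2b2 between -0.353 and 0.347 (the same 2 lists). With Por they ran from -0.453 (T and NK cells) to 0.492 (blood). Their part in the results below was not tested.

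The receptor genes differed in how much they varied between rats of the same diet. Nr1i3 had a standard deviation of 0.64 within diets (log2 units), and only 2.2% of all clusters on the array varied more, where the median cluster had 0.24. Nr1i2 and Rxra varied little, with 0.19 and 0.16, and 72.3% and 83.4% of clusters varied more. Both were bright, with means of 10.10 and 11.30. Among clusters of like mean level 47.7% and 53.1% varied more, so that their spread was ordinary for that level. Among the enzyme genes Cyp3a9 varied most, with 1.27 (0.0654% of clusters varied more), before Cyp2b2 with 0.93 (0.292%), Cyp2b1 with 0.55 (4.86%) and Por with 0.54 (5.4%). Thus 5 of the 7 genes were among the more variable clusters of the array and the heterodimer partner Rxra was not.

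The first question was whether the genes differed between diets. No cluster on the array had an adjusted p under 0.05 in any of the 3 comparisons (limma, Benjamini-Hochberg over 36685 clusters, 0% called each time), so none of the 7 genes passed. The comparisons with controls share the 10 control rats. At an unadjusted p under 0.05, 2 of the 7 genes stood out between NK603 and control rats (Cyp2b2 and Nr1i2, both with a lower NK603 mean), where 5.63% of all clusters did. Between NK603+R and control rats it was 1 of 7 (Nr1i3, with a higher NK603+R mean), against 5.71% of clusters, and between NK603+R and NK603 rats it was 2 of 7 (Cyp2b2 and Nr1i3, both with a higher NK603+R mean), against 6.21% of clusters.

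**Figure D1:**
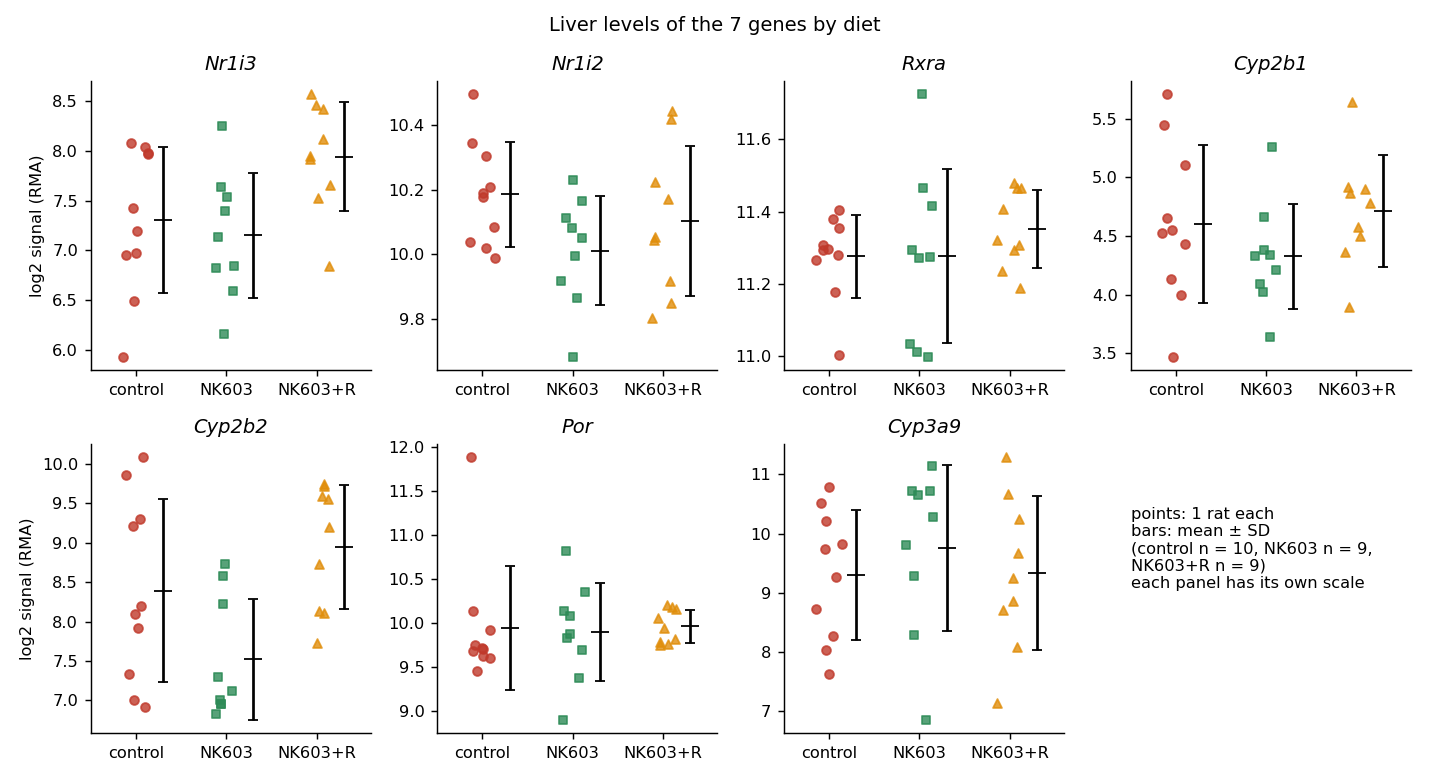
Log2 signal (vertical axis, own scale in each panel) of the 7 genes in each rat by diet, with means and SD as bars. Nr1i3 and Cyp2b2 stand highest with NK603+R and overlap between all diets, and 1 control rat stands alone in Por at 11.89.

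Nr1i3 had its highest mean in livers of the NK603+R group. Its log2 signal ran from 5.93 over a median of 7.31 to 8.08 in controls, from 6.16 over 7.14 to 8.25 with NK603, and from 6.84 over 7.95 to 8.57 with NK603+R. The ranges overlapped, with 4 of 9 NK603+R rats above every control rat and 3 of 9 above every NK603 rat. The means were 7.30 ± 0.73 (SD, n = 10), 7.15 ± 0.63 (SD, n = 9) and 7.94 ± 0.55 (SD, n = 9). The NK603+R mean lay 0.79 above that of NK603 (standard error 0.25, 1.72-fold, limma adjusted p = 0.785) and 0.64 above that of controls (standard error 0.27, limma adjusted p = 0.833), and NK603 minus control was -0.15 (standard error 0.29, limma adjusted p = 0.993). The difference to NK603 was smaller once age was considered, at 0.31 among rats that reached 700 days and 0.69 with age as a covariate. NK603 minus control among rats that reached 700 days was 0.28, the opposite sign. The 3 youngest rats, NK603 replicates 8, 4 and 9 killed at 393, 421 and 465 days, had Nr1i3 signals of 6.16, 6.85 and 7.14.

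Cyp2b2 had the most separated levels of the 7 genes between the NK603 groups. It ran from 6.91 over a median of 8.15 to 10.09 in controls, from 6.83 over 7.11 to 8.74 with NK603 and from 7.73 over 9.20 to 9.75 with NK603+R. All 9 NK603+R rats lay above the median of the NK603 rats and 5 of 9 lay above the highest of them, while controls reached above both groups and 1 NK603 rat lay below every control rat. The difference of NK603+R minus NK603 was 1.43 (standard error 0.33, 95% interval 0.73 to 2.12, a 2.69-fold higher mean), with an adjusted p of 0.686 from limma, and it was 1.37 among rats that reached 700 days. By unadjusted p it was number 20 of 36685 clusters. Against controls, NK603 differed by -0.87 (standard error 0.42, limma adjusted p = 0.883) and NK603+R by 0.55 (standard error 0.42, limma adjusted p = 0.843).

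Cyp2b1, the closest relative of Cyp2b2, was dim, with a mean of 4.55 over all rats, and 76.6% of clusters were brighter. Whether it lay above background could not be told from the values used here. It ran from 3.47 over 4.54 to 5.71 in controls, from 3.64 over 4.33 to 5.26 with NK603 and from 3.89 over 4.78 to 5.64 with NK603+R, so that the 3 ranges largely coincided. Its difference of NK603+R minus NK603 was 0.39 (standard error 0.20, limma adjusted p = 0.785), and 0.13 among rats that reached 700 days.

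Nr1i2 and Rxra, the other receptor genes, stayed within narrow ranges. Nr1i2 ran from 9.99 over 10.18 to 10.50 in controls, from 9.68 over 10.05 to 10.23 with NK603 and from 9.80 over 10.05 to 10.44 with NK603+R, and 3 of 9 NK603 rats and 3 of 9 NK603+R rats lay below every control rat. NK603 minus control was -0.17 (standard error 0.08, limma adjusted p = 0.877). Rxra had means of 11.28 ± 0.11 (SD, n = 10), 11.28 ± 0.24 (SD, n = 9) and 11.35 ± 0.11 (SD, n = 9) in control, NK603 and NK603+R rats, and the 95% interval of NK603 minus control ran from -0.18 to 0.18. The NK603 group held both the highest and the lowest Rxra signal of all rats, 11.73 and 10.997.

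Por and Cyp3a9 showed no diet difference at an unadjusted p under 0.05. Por ran from 9.46 over 9.71 to 11.89 in controls, from 8.91 over 9.88 to 10.82 with NK603 and from 9.75 over 9.94 to 10.20 with NK603+R, so that the NK603+R group had the narrowest range and 1 control rat stood far above the rest. Cyp3a9 ran from 7.62 over 9.50 to 10.79 in controls, from 6.85 over 10.29 to 11.15 with NK603 and from 7.14 over 9.26 to 11.30 with NK603+R, and the spread within each diet exceeded every difference between diets. Its 95% interval of NK603+R minus NK603 ran from -1.63 to 0.78.

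**Figure D2:**
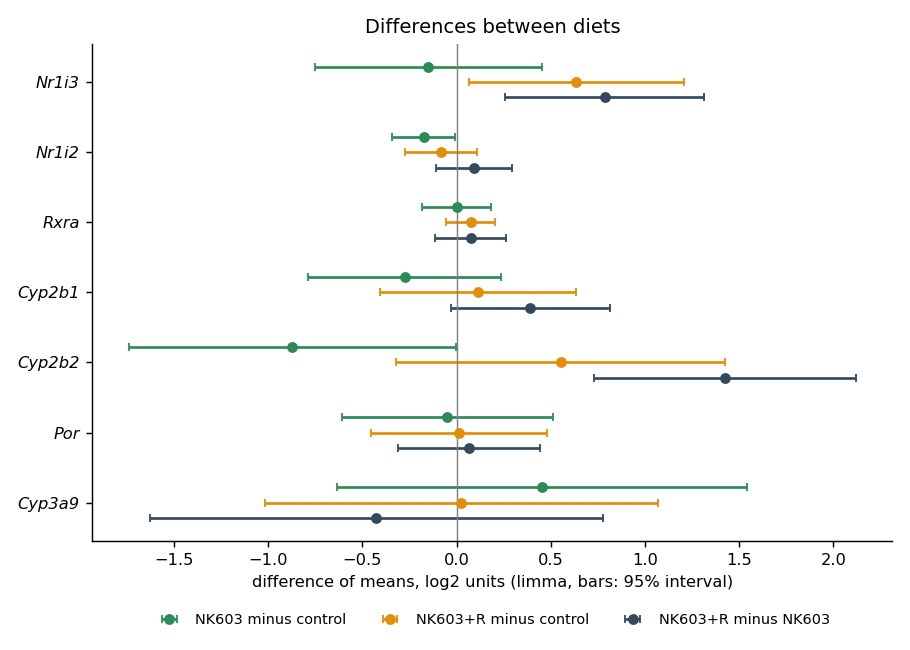
Differences of mean log2 signal between diets for the 7 genes (points) with 95% intervals from limma (bars) and a line at 0. Only the intervals of Nr1i3 and Cyp2b2 for NK603+R minus NK603, of Nr1i3 for NK603+R minus control, and of Nr1i2 and Cyp2b2 for NK603 minus control leave out 0, before adjustment.

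Age at death, fitted with diet as a term, called 0 of 36685 clusters (0%). At an unadjusted p under 0.05 it was 7.1% of clusters and 0 of the 7 genes. The slope of Nr1i3 was 0.15 per 100 days (standard error 0.12, limma adjusted p = 0.886).

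The second question was whether receptor and target levels went together from rat to rat. Of 12 receptor and target pairs, with diet means removed, only Nr1i3 with Cyp2b2 had an adjusted p under 0.05, the adjustment being over the 12 pairs and not over the array. The pairs were chosen with earlier results of these data known, and the adjustment does not cover that choice. In controls, the 4 rats with the lowest Nr1i3 signals (5.93, 6.49, 6.95 and 6.97) had Cyp2b2 signals of 6.91, 7.01, 8.20 and 7.33 in that order. The 4 control rats with an Nr1i3 signal of 7.97 or more had Cyp2b2 signals of 9.21 to 10.09, above all other control rats. Pearson's r of the deviations from diet means was 0.65 over 28 rats (permutation p = 0.00071, 0.00852 after Benjamini-Hochberg adjustment over the 12 pairs), and Spearman's rho was 0.62 (permutation p = 0.00156, adjusted 0.0187). Without the 2 rats farthest from the median of Nr1i3 (control replicate 10 and NK603 replicate 8) r was 0.59 (permutation p = 0.00295, not adjusted), and over the 19 rats that reached 700 days it was 0.70 (permutation p = 0.00309, adjusted 0.0371). With replicate number as a further term, r was 0.354 and did not pass (adjusted permutation p = 0.171). Equal numbers showed no pairing of the rats over all clusters, which does not cover single genes.

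Over the whole array the relation did not pass. Cyp2b2 changed by 0.94 log2 units per unit of Nr1i3 (standard error 0.21), with an adjusted p of 0.574 from limma over 36684 clusters, of which 0 were called (0%, 6.07% at an unadjusted p under 0.05, against 2 of the 6 other members, Cyp2b2 and Cyp3a9). By r, Cyp2b2 was number 3 of 18165 genes in likeness to Nr1i3, and Nr1i3 was number 3 in likeness to Cyp2b2, in whose fit 0 clusters were called (0%, 6.26% unadjusted, against 2 of 6 members, Nr1i3 and Cyp3a9). Leaving the diet means in, r was 0.71 (permutation p = 3e-05, adjusted over the 12 pairs 0.00036).

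**Figure D3:**
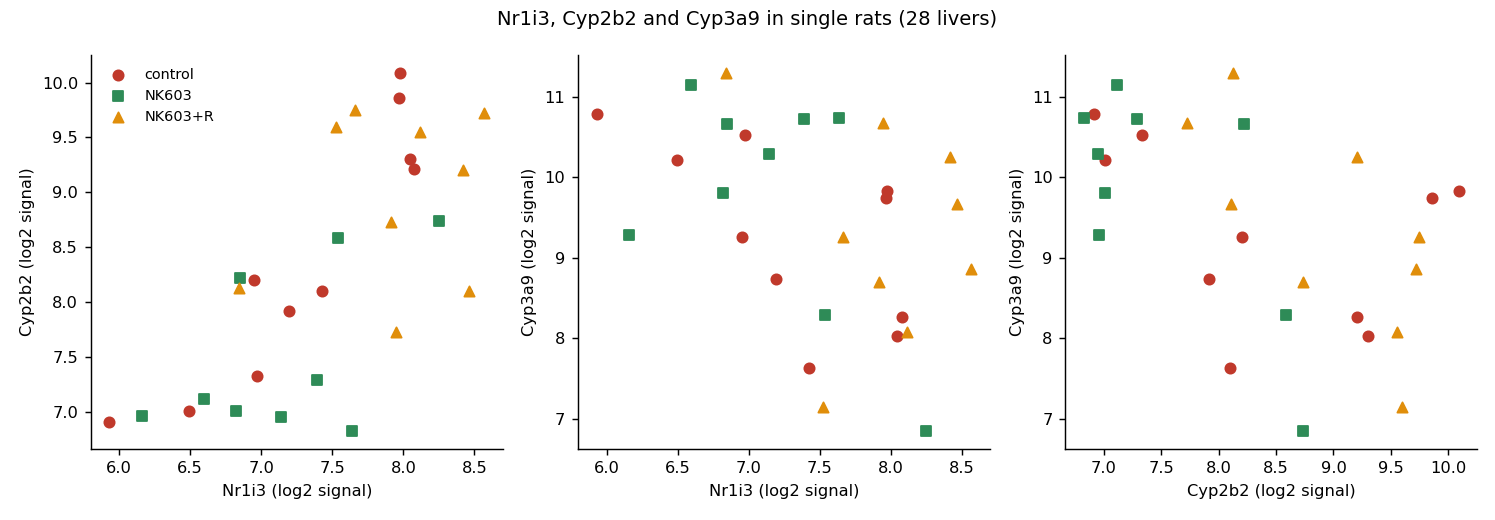
Log2 signal of Cyp2b2 and Cyp3a9 against Nr1i3, and of Cyp3a9 against Cyp2b2, with 1 point per rat and colours and symbols for diets. Control rats follow a line from low Nr1i3 and Cyp2b2 (5.93 and 6.91) to high levels of both (7.97 and 10.09), while NK603+R rats lie between 6.84 and 8.57 in Nr1i3 and between 7.73 and 9.75 in Cyp2b2.

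The relation was steepest among controls. Within diets, r of Nr1i3 with Cyp2b2 was 0.92 in controls (n = 10), 0.55 with NK603 (n = 9) and 0.20 with NK603+R (n = 9), and the slopes were 1.45, 0.67 and 0.28. These slopes did not differ past the test of the interaction over all clusters (limma F test, unadjusted p = 0.0595, adjusted p = 0.526), which called 0 clusters (0%, 9.72% at an unadjusted p under 0.05). For none of the other 5 genes did the slope on Nr1i3 differ between diets at an unadjusted p under 0.05.

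Cyp3a9 ran opposite to Nr1i3 and Cyp2b2 in many rats, without passing. NK603 replicate 3, with the highest Nr1i3 and Cyp2b2 signals of its diet (8.25 and 8.74), had the lowest Cyp3a9 signal of all rats (6.85). Control replicate 10, with the lowest Nr1i3 and Cyp2b2 signals of its group, had its highest Cyp3a9 signal (10.79). For Nr1i3 with Cyp3a9, r was -0.45 (permutation p = 0.0191, adjusted over the 12 pairs 0.0903), rho was -0.39 (permutation p = 0.0478, adjusted 0.244), and the slope was -0.88 (standard error 0.33, limma adjusted p = 0.785). The r was -0.61 in controls, -0.52 with NK603 and -0.19 with NK603+R. The r of Cyp2b2 with Cyp3a9 was -0.55, and 46 of 18165 genes had a lower r with Cyp2b2.

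Other pairs were weaker. Cyp2b1 had an r of 0.24 with Nr1i3 (permutation p = 0.268, adjusted 0.536) and of 0.34 with Cyp2b2. Nr1i2 had an r of 0.39 with Por (permutation p = 0.0226, adjusted 0.0903), and a rho of 0.26 (permutation p = 0.154, adjusted 0.369). This r was 0.27 without the 2 rats farthest from its median (permutation p = 0.105) and 0.207 without control replicate 1 alone (adjusted permutation p = 0.603). Nr1i2 had an r of -0.05 with Cyp2b2 and 0.20 with Cyp3a9. Rxra had an r of 0.21 with Cyp2b2 (permutation p = 0.262, adjusted 0.536), which was 0.49 without NK603 replicates 9 and 3, the rats farthest from its median (permutation p = 0.00779, not adjusted over the pairs). With Por its r was 0.01, and 0.457 without control replicate 1 (adjusted permutation p = 0.437). In controls the r of Rxra with Por was -0.86, and -0.396 over the 9 controls without that rat, while it was 0.57 with NK603 and 0.31 with NK603+R. The receptors themselves had an r of 0.04 (Nr1i3 with Nr1i2), -0.01 (Nr1i3 with Rxra) and 0.36 (Nr1i2 with Rxra).

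**Figure D4:**
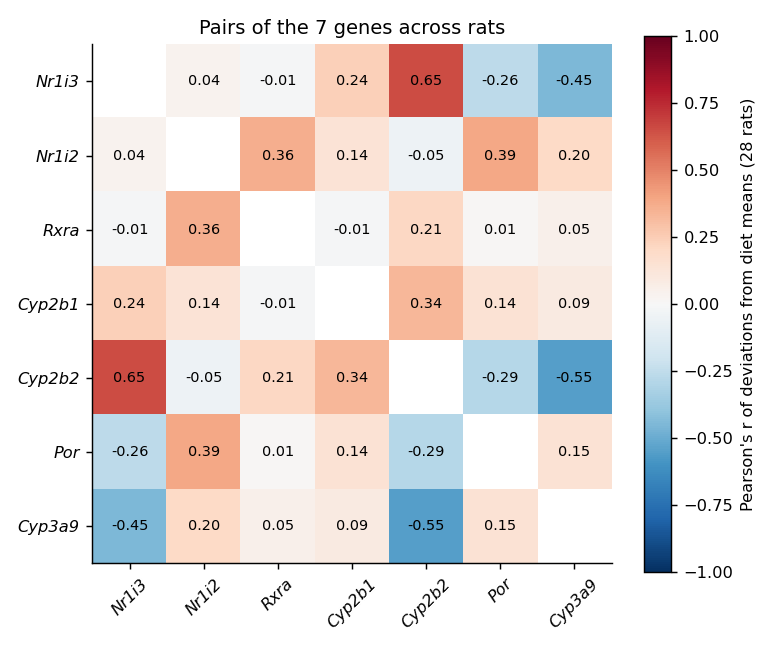
Pearson's r of deviations from diet means for every pair of the 7 genes over 28 rats, from blue (negative) to red (positive). The strongest entries are Nr1i3 with Cyp2b2 at 0.65 and Cyp2b2 with Cyp3a9 at -0.55.

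Among the 36684 clusters fitted on the level of Nr1i2 none was called (0%, 6.19% at an unadjusted p under 0.05), and at that level it was 1 of 6 members, Por. On the level of Rxra 2 clusters were called (0.00545%, 5.59% unadjusted), neither of them a member and 0 of 6 members unadjusted, and the count differed by over 1.5 times in 20 of 28 omissions of 1 rat.

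Other genes known as targets of CAR or PXR did not follow Nr1i3 as a group. Of 8 measured oxidation genes 4 had a positive and 4 a negative slope on Nr1i3 (median -0.01, against 0.01 over all clusters, of which 55.1% were positive). Of 11 conjugation genes 5 were positive (median -0.00), and of 7 transport genes 4 were (median 0.07). No gene of these lists passed, and 1 of 8, 2 of 11 and 2 of 7 had an unadjusted p under 0.05, against 6.07% of all clusters. Gsta3, a glutathione transferase, had a slope of 0.28 (standard error 0.10, limma adjusted p = 0.759), and Papss2, which makes the sulfate donor for sulfotransferases, had one of -0.14 (standard error 0.05, limma adjusted p = 0.759). The Cyp3a relatives Cyp3a23-3a1 and Cyp3a18 had slopes of -0.49 and -0.44, and Cyp3a2 one of 0.04. The 4 other Cyp2b genes measured (Cyp2b3, Cyp2b12, Cyp2b15 and Cyp2b21) had slopes between -0.05 and 0.03.

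In the comparison of NK603+R with NK603 livers, 6 of 8 oxidation, 9 of 11 conjugation and 5 of 7 transport genes had a higher mean with NK603+R (medians 0.11, 0.13 and 0.08, against -0.00 over all clusters, of which 49.2% were higher), and no gene had an adjusted p under 0.05. Against the shared control rats both NK603 groups had lower means for most genes of the first 2 lists, with 6 of 8 oxidation and 9 of 11 conjugation genes lower with NK603+R (medians -0.06 and -0.06) and 6 of 8 and 10 of 11 lower with NK603 (medians -0.22 and -0.17). Of the 7 transport genes 4 had a higher mean with NK603+R than in controls and 3 with NK603. In NK603+R minus NK603, Aldh1a1, a retinal dehydrogenase, had a difference of 0.70 (standard error 0.29, limma adjusted p = 0.785). Abcg2, an efflux transporter, had one of -0.54 (standard error 0.17, limma adjusted p = 0.785). Against controls Aldh1a1 differed by -0.81 with NK603 and by -0.11 with NK603+R, and Abcg2 by 0.48 and -0.06. The 11 pericentral genes mark the hepatocytes around the central vein, where Cyp2b enzymes are mostly induced. All 11 had a higher mean with NK603+R than with NK603 (median 0.22). Against controls 9 of 11 had a higher mean with NK603+R (median 0.17) and 4 of 11 with NK603 (median -0.03). Between NK603+R and NK603 3 of 11 had an unadjusted p under 0.05, against 6.21% of all clusters, among them Oat, ornithine aminotransferase, with 0.52 (standard error 0.16, limma adjusted p = 0.785). The mean level of these genes per rat lay between 9.43 and 9.95 in the NK603 group and between 9.68 and 10.35 in the NK603+R group, and it had an r of 0.21 with Nr1i3 and of -0.35 with Cyp2b2. Of 20 acute phase genes 19 had a lower mean with NK603+R than with NK603 (median -0.17). Against controls 19 of 20 were higher with NK603 (median 0.13), where 52.1% of all clusters were. With NK603+R 11 of 20 were higher than in controls (median 0.01), where 50.6% of all clusters were. Both counts of 19 rest on the same 9 NK603 rats. In NK603+R minus NK603 the largest t was that of Osmr, part of the oncostatin M receptor, with -0.94 (standard error 0.26, limma adjusted p = 0.785). The mean level of the acute phase genes lay between 11.35 and 12.68 in the NK603 group and between 11.23 and 11.94 in the NK603+R group, and it had an r of -0.10 with Nr1i3 and 0.13 with Cyp2b2, and the part of either list in the differences between diets was not tested.

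Among 18 partners and regulators of CAR and PXR, 11 had a positive slope on Nr1i3 (median 0.02) and not 1 was past an unadjusted p of 0.05. Rxrb, another RXR, had 0.09 (standard error 0.05) and Hsp90ab1, a chaperone of the complex that holds CAR in the cytoplasm, 0.09 (standard error 0.05). Next by absolute t came 2 negative slopes, of Rxrg, also an RXR, with -0.08 (standard error 0.05) and of Foxa2 with -0.14 (standard error 0.09). Among 15 other nuclear receptors and xenobiotic sensors of liver 5 were positive, and Ahr, the receptor for dioxins, had a slope of 0.22 (standard error 0.09, limma adjusted p = 0.785), like Ppara, the fatty acid receptor, with 0.21 (standard error 0.09, limma adjusted p = 0.795). Among the negative slopes that of Rarb had the largest absolute t, with -0.10 (standard error 0.06). Of 17 clock genes 7 were positive (median -0.02), not 1 past an unadjusted p of 0.05, and the r of Nr1i3 with Dbp was 0.06. Of 13 periportal genes, the counterpart of the pericentral list, 2 were positive (median -0.06), and of 9 stellate cell and fibroblast genes 3 were (median -0.07), with Dcn, the matrix protein decorin, at -0.40 (standard error 0.16, limma adjusted p = 0.785).

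By likeness to Nr1i3 over the 28 rats, with diet means removed, Krtap10-10 came first (r = 0.73) and Or5k17 second (r = 0.67), before Cyp2b2, Slf2, Kat2a, Vps8, Evi5, Or5ac15, Slc27a2 and Helb (0.60 to 0.65). Or5k17 and Or5ac15, annotated as olfactory receptors, were dim, with mean log2 signals of 2.49 and 3.23. For Cyp2b2 the order was Myo1d (0.71), Scai (0.71), Nr1i3 (0.65), Hist1h3b (0.64) and Nxf1 (0.63). The smallest limma adjusted p among these associations was 0.302.

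Over all 28 rats, the levels of Por and, at an unadjusted p only, of Nr1i2 went with those of clock genes. The fit on Por was added after its values were seen. Control replicate 1 had a Por signal of 11.89, where the other controls lay between 9.46 and 10.14, and NK603 replicate 9 came next with 10.82. Control replicate 1 also had the highest signal of its group in Ciart (8.21), Usp2 (10.20) and Dbp (11.41) and the lowest in Bmal1 (6.39) and Npas2 (6.26). NK603 replicate 9 was likewise highest in its group in Ciart (7.13), Usp2 (9.42) and Dbp (11.89) and lowest in Bmal1 (6.22) and Npas2 (7.43). After them, NK603 replicate 7 and NK603+R replicates 4 and 7 came next with high Dbp (10.42, 10.84 and 10.28) and low Bmal1 (8.53, 8.22 and 8.60). Their Por signals were 10.14, 10.20 and 10.06, within the range of the other rats. All lay above the medians of their diets (9.88 with NK603, 9.94 with NK603+R), and NK603+R replicate 4 was the highest of its diet.

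Over 28 rats, 261 clusters were associated with the level of Por (0.711%, 10.1% at an unadjusted p under 0.05), 72 with a positive and 189 with a negative slope, and without control replicate 1 the count was 0 (0%). None of the other 6 genes was among the 261. Of 17 clock genes 5 were called with a positive slope (Dbp, Tef, Per3, Ciart and Usp2) and 3 with a negative one (Bmal1, Clock and Npas2), and without control replicate 1 none was called. Ciart, a repressor within the clock, had a slope of 1.08 (standard error 0.12, limma adjusted p = 1.49e-05) and an r of 0.87, which was 0.68 without that rat (limma adjusted p = 0.268). Bmal1, the activator that pairs with CLOCK, had a slope of -1.36 (standard error 0.18, limma adjusted p = 0.000178) and an r of -0.82, and -0.63 without that rat (limma adjusted p = 0.424). Dbp, whose product binds the D-box, had an r of 0.68 with Por, 0.50 without that rat, and -0.23 with Cyp2b2. The values without control replicate 1 still include NK603 replicate 9. No fit left out both rats, so whether the relation holds among the rest was not tested.

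On the level of Nr1i2 none of the 17 clock genes had an adjusted p under 0.05, while 9 had an unadjusted p under 0.05, against 6.19% of all clusters. Of these, 6 had a positive slope (Dbp, Tef, Nr1d1, Per3, Ciart and Usp2) and 3 a negative one (Bmal1, Clock and Npas2). Several of them were extreme in the same few rats, so that the 9 genes are not separate observations. The smallest p was that of Per3, a component of the clock, with a slope of 2.08 (standard error 0.56, limma adjusted p = 0.41) and an r of 0.58, which was 0.49 without control replicate 1. Bmal1 had a slope of -2.46 (standard error 0.77, limma adjusted p = 0.549) and an r of -0.52, and -0.41 without that rat. Without control replicate 1 there were 4 positive and 2 negative at an unadjusted p under 0.05, against 5.9% of all clusters, of which 0 were called (0%). NK603 replicate 9, with the highest Nr1i2 signal of its group (10.23), was still included, and no fit left out both rats.

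**Figure D5:**
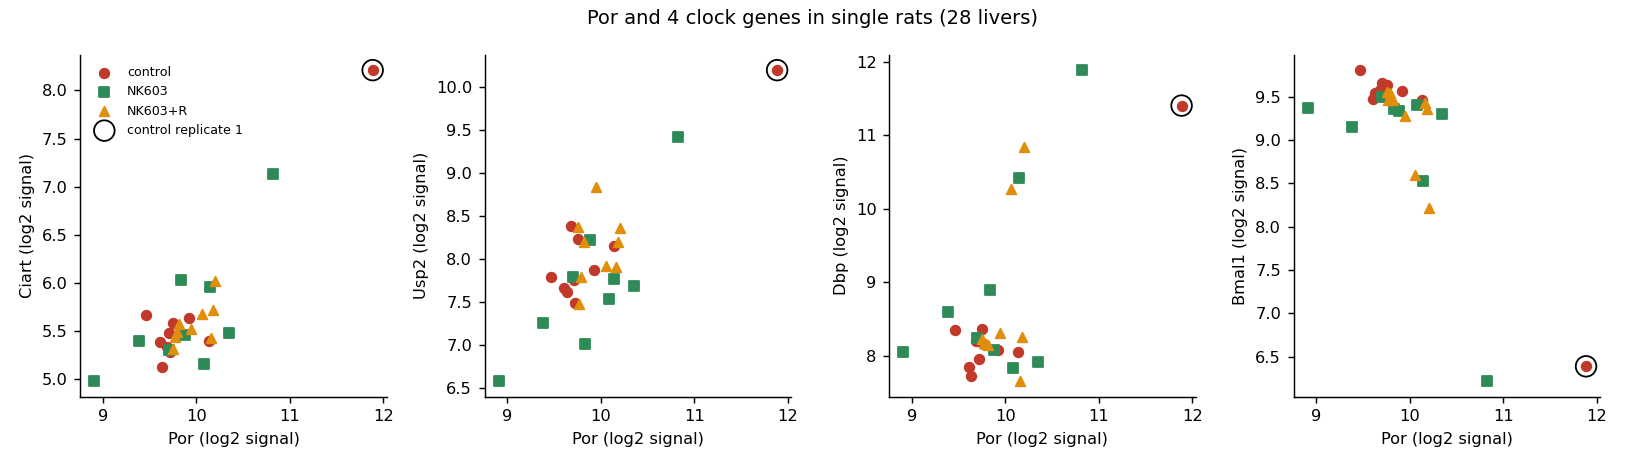
Log2 signal of Ciart, Usp2, Dbp and Bmal1 against Por, with 1 point per rat and control replicate 1 ringed. The ringed rat, at 11.89 in Por, and NK603 replicate 9, at 10.82, lie apart from the other 26 rats, and the other rats span 8.91 to 10.35 in Por.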

How the data were processed

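Liver RNA was measured on 1 array per rat. The authors normalised all arrays together by RMA at the gene level in Affymetrix Expression Console (versions are not given in the sources used here), and the deposited log2 values, 1 per transcript cluster and rat, were used without change. Of 36685 clusters 18511 carry 1 gene symbol, 575 several and 17599 none in the platform annotation. No scan date or batch is given in the sources used here, so batches were not tested.

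The genes, gene lists and pairs were chosen with earlier results of these data known. Diets were compared in pairs with limma 3.58.1 (lmFit and eBayes, R 4.3.3) over all clusters, with Benjamini-Hochberg adjustment and a threshold of 0.05. Associations were fitted in limma on the level of 1 gene with diet as a term, in which its own cluster was left out. Receptor and target pairs were tested two-sided with 100000 permutations within diets. Genes besides the 7 were named by rule: up to 4 per list by absolute t on Nr1i3, up to 2 by t in NK603+R minus NK603, and the 10 and 5 genes most like Nr1i3 and Cyp2b2. Genes named beside Por and Nr1i2, Cyp3a2, Dcn and Dusp12 were picked with their values in view. The study's methods used t-tests, run here as an alternative. On simulated arrays of 36685 clusters limma found 92.5% of 200 clusters, drawn at random, that were changed by 1 between NK603+R and NK603. The noise was independent, with the within-diet spread of each cluster, whose median standard deviation was 0.24. That share was not measured for genes as variable as Nr1i3, Cyp2b2 and Cyp3a9, with 0.64, 0.93 and 1.27.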

Additional observations from a re-analysis of the deposited data

Results flagged for a closer look

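The Por signal of control replicate 1, 11.886 on the log2 scale, lay far from those of the other 9 control rats, with a gap to the next rat above Dixon's 95% critical value for the range of the group. It was the only such value among 21 groups (7 genes in 3 diets), where chance marks about 1 in 20 groups. The same rat had the highest Nr1i2 signal (10.50) and the lowest Rxra signal (11.004) of the controls, and its age at death was 720 days, close to the group median of 725 days.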

How the results depend on the processing

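None of the 7 genes was called between diets under any alternative run: all diets in 1 fit, the methods' t-test, dim clusters left out (which leaves out Cyp2b1 itself), arrays centred on their medians, age as a covariate, rats killed at or after 700 days, a variance prior with trend, the replicate block, or any rat left out. The second cluster of a gene could not be tried, since each had 1. Of 1035 alternative values for single genes and pairs, 959 kept their direction and their side of the threshold, 72 turned direction (46 of them with 1 rat left out), and none of the 72 had been called. In rats killed at or after 700 days, NK603 minus control was 0.277 for Nr1i3, -0.0545 for Rxra and -0.156 for Cyp3a9, NK603+R minus control was -0.0861 for Por and -0.153 for Cyp3a9, NK603+R minus NK603 was 0.00305 for Cyp3a9, and r was -0.00847 for Nr1i2 with Cyp2b1, 0.0498 for Rxra with Cyp2b1, -0.312 for Rxra with Por and -0.0555 for Rxra with Cyp3a9. With age as a covariate, NK603 minus control was 0.0468 for Nr1i3 and -0.0359 for Rxra, NK603+R minus control was -0.00162 for Cyp3a9, and with age removed by regression r was 0.0170 for Rxra with Cyp2b1 and -0.0290 for Rxra with Por. With centred arrays, NK603 minus control was -0.00844 for Rxra, NK603+R minus control was -0.0202 for Por and -0.00843 for Cyp3a9, and r was 0.0332 for Rxra with Cyp2b1. By rank, rho was 0.00383, -0.00328 and -0.0547 for Rxra with Cyp2b1, Por and Cyp3a9. With diet means left in, r was 0.0852 for Nr1i2 with Cyp2b2 and 0.0332 for Rxra with Cyp2b1.

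Equal replicate numbers showed no pairing of the rats over all clusters: deviations of same-numbered rats correlated between -0.311 and 0.23, over 0.1 in 4 of 27 pairs, and the most alike rat of another diet had the same number in 5 of 54 cases. What the numbers stand for is not given in the labels, and an effect shared by equal numbers on a few genes was not tested. With the replicate block 0 of the 12 receptor and target pairs passed in place of 1 (Nr1i3 with Cyp2b2 at r = 0.354, adjusted permutation p = 0.171), r was 0.0650 for Rxra with Cyp2b1 and -0.0954 for Rxra with Cyp3a9, 0 clusters were called on Rxra and 29 on Por. The count on Rxra (2) was 6 with centred arrays, 1 with no diet term, and 0 with age as a covariate or in rats killed at or after 700 days. That on Nr1i2 (0) was 1 with no diet term, that on Por (261) was 439 with dim clusters left out and 145 with centred arrays, and that on age (0) was 13 with dim clusters left out. The cause of these changes was not tested. Leaving out each rat in turn gave 0 to 1 clusters on Nr1i3 (1 without control replicate 3), 0 to 3 on Nr1i2, 0 to 4 on Rxra, 0 to 358 on Por and 1 to 3 pairs passed. Without NK603 replicate 8 there were 3 pairs (Nr1i3 with Cyp3a9 at -0.504 and Nr1i2 with Por at 0.449 in addition), and without NK603+R replicate 8 there were 2 (Nr1i3 with Cyp3a9 at -0.541). With 1 rat left out r of Nr1i3 with Cyp2b2 ran from 0.595 to 0.707. Left-out rats moved NK603 minus control from -0.166 to 0.164 for Por and from -0.0559 to 0.0351 for Rxra, NK603+R minus control from -0.0122 to 0.237 for Cyp2b1, from -0.0407 to 0.229 for Por and from -0.221 to 0.298 for Cyp3a9, and NK603+R minus NK603 from -0.0601 to 0.180 for Por. They moved r from -0.162 to 0.0338 for Nr1i2 with Cyp2b2, from -0.0727 to 0.0582 for Rxra with Cyp2b1, from -0.263 to 0.457 for Rxra with Por and from -0.154 to 0.131 for Rxra with Cyp3a9. Dim clusters such as Cyp2b1 carry the least signal over background.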

Other observations

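Dusp12, a dual-specificity phosphatase, had the lowest r of 18165 genes both with Nr1i3 (-0.74, limma adjusted p = 0.268) and with Cyp2b2 (-0.71, limma adjusted p = 0.302), with diet means removed. It was named after its values were seen. Its log2 signal was 8.57 ± 0.37 (SD, n = 10) in the control group. The NK603 group had 8.32 ± 0.34 (SD, n = 9), and the lowest mean was that of the NK603+R group, 8.13 ± 0.30 (SD, n = 9). The gene lies on chromosome 13 like Nr1i3, with 11 protein-coding genes between them in the RefSeq annotation of GRCr8.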
